A study of Homo sapiens with 11 samples.

Results

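The transcripts described here are those of the oxidative stress pathway of NRF2: NFE2L2, which encodes NRF2 itself, KEAP1, and 7 NRF2 targets outside glutathione synthesis, namely HMOX1, NQO1, TXNRD1, SRXN1, TXN, PRDX1 and FTL. They were chosen by symbol, and 9 of 9 were found among the 27671 gene symbols of the count table and were among the 15591 genes tested. Polyadenylated RNA of HEK293T, a transformed kidney-derived human line with the SV40 large T antigen (named HEK293 in the growth protocol), was sequenced after treatment with 10 µM A8 (n = 3), with 10 µM A8 and ISRIB (n = 3), with ISRIB and the solvent DMSO (n = 2, a further library having been set aside by the submitters for its quality) or with DMSO alone, called vehicle (n = 3). By the series title, A8 acts on RIG-I, an innate immune sensor of RNA, and turns on the integrated stress response, in which phosphorylated eIF2 lowers translation and favours ATF4. ISRIB is a compound that blunts that response through eIF2B. The sample labels give 8 h of treatment and the treatment protocol 4 h, the ISRIB dose is not given in the sources used here, and all groups are of 1 cell line.

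NRF2 is a transcription factor that KEAP1 holds for ubiquitination by a CUL3 ligase, so that the protein is made and destroyed continuously. When oxidants or electrophiles modify cysteines of KEAP1, NRF2 escapes destruction, pairs with a small MAF protein and binds antioxidant response elements in front of genes for detoxification, thiol reduction and iron handling. NRF2 is therefore controlled mostly as a protein, and the transcripts of its targets are the usual readout of its activity.

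RefSeq promoter windows on GRCh38.p14, which run from a short way upstream of a transcript start to 50 bases after it, were matched to 7 of the 9 genes. They were read for matches to the core of the antioxidant response element, TGACNNNGC on both strands. Sequence outside the windows, such as farther upstream, was not searched, so a window without a match does not show that a gene lacks the element. TXNRD1 and KEAP1 each had a window with 2 matches, printed below in capitals, and SRXN1, whose level differed most with A8, had none in its window. Each printed sequence is only a part of the window searched, 150 bases for SRXN1. Matches on the strand opposite to the gene appear as their reverse complement.
TXNRD1, chr12:104215660-104215779, plus strand: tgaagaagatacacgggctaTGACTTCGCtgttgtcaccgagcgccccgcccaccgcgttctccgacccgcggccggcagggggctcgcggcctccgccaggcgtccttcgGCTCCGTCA
KEAP1, chr19:10502774-10502845, minus strand: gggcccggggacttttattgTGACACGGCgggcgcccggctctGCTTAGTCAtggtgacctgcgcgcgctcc
SRXN1, chr20:653201-653350, minus strand: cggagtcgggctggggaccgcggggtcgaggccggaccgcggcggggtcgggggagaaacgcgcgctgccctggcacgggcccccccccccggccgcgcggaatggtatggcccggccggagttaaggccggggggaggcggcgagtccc

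The TXNRD1 matches begin 99 and 8 bases before the start of transcription, the second reaching the first transcribed base, and those of KEAP1 begin 54 and 31 bases before it. A second TXNRD1 window held 1 match, TGACAAAGC. Windows of NFE2L2, NQO1, TXN and FTL held none, the NQO1 window covering only chr16:69726511-69726810. Among all promoter windows 13.3% held at least 1 match and 1.13% at least 2, and 16.1% of gene symbols had a window with one. The core of the C/EBP-ATF response element bound by ATF4, TGATGNAA, was in no window of these 7 genes, against 3.62% of all windows. These matches describe letters and not binding.

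Libraries held 34072107 to 35318111 counts. Of the HEK293T markers VIM, KRT8, KRT18, NEFL, NEFM, PAX2 and LIN28B, each was detected in every library, PAX2 at only 0.991 to 2.14 CPM (counts relative to library size after TMM scaling), while PTPRC, CD3E, HBB and PECAM1 had 0 counts throughout, ALB had at most 8 counts per library and COL1A1 measured 15.7 to 21.2 CPM. Replicate 3 of A8 with ISRIB stood apart from its group: chi-square over degrees of freedom was 36.1 and 22.6 against replicates 1 and 2, and 7.92 between these others. Vehicle replicate 3 stood apart in the same way, at 24.7 and 19.6 against vehicle replicates 1 and 2, which gave 9.19 between them. To a lesser degree so did A8 replicate 2, at 14.2 and 13.4 against A8 replicates 1 and 3, which gave 7.21 between them. The ISRIB libraries a and b gave 15.2. Of 6 genes of the integrated stress response, CHAC1, ASNS and SESN2 were called higher with A8. ASNS, the asparagine synthetase, averaged 257 ± 20.4 CPM with A8 and 157.7 ± 7.76 CPM with vehicle (SD, n = 3 each), 0.70 log2 units apart by edgeR's quasi-likelihood test (adjusted p = 4.46e-05). In bulk RNA fewer cells with a transcript and less of it per cell cannot be told apart.

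The pathway was present in untreated cells at very uneven levels. Per kilobase of exon, vehicle libraries held 390 ± 14 CPM of PRDX1, a peroxidase of the thioredoxin system, 244 ± 8.4 of TXN, thioredoxin, and 233 ± 13 of FTL, the ferritin light chain that stores iron (SD, n = 3). The levels of TXN and FTL overlapped within their spread. HMOX1, the heme oxygenase, stood at 43.1 ± 1.0 CPM per kilobase, TXNRD1, the cytosolic thioredoxin reductase, at 31.4 ± 1.1, KEAP1 at 31.3 ± 1.5 and NFE2L2 at 13.6 ± 0.58, with TXNRD1 and KEAP1 not separable. At the bottom were SRXN1, sulfiredoxin, which repairs over-oxidised peroxiredoxins, at 5.56 ± 0.066, and NQO1, a quinone reductase often used as an NRF2 reporter, at 1.52 ± 0.38 CPM per kilobase. The order was the same in the other groups, except that KEAP1 stood above TXNRD1 with A8 and ISRIB (30.0 and 29.4 CPM per kilobase). Lengths were those of merged exons in GENCODE 29, so the order depends on which isoforms are made. RefSeq lists 20 pseudogenes named after FTL, 7 after TXN, 1 after PRDX1 and 1 after SRXN1, none with a row of its own in the count table, so reads of these genes may be shared in a way that the counts do not show.

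**Figure D1:**
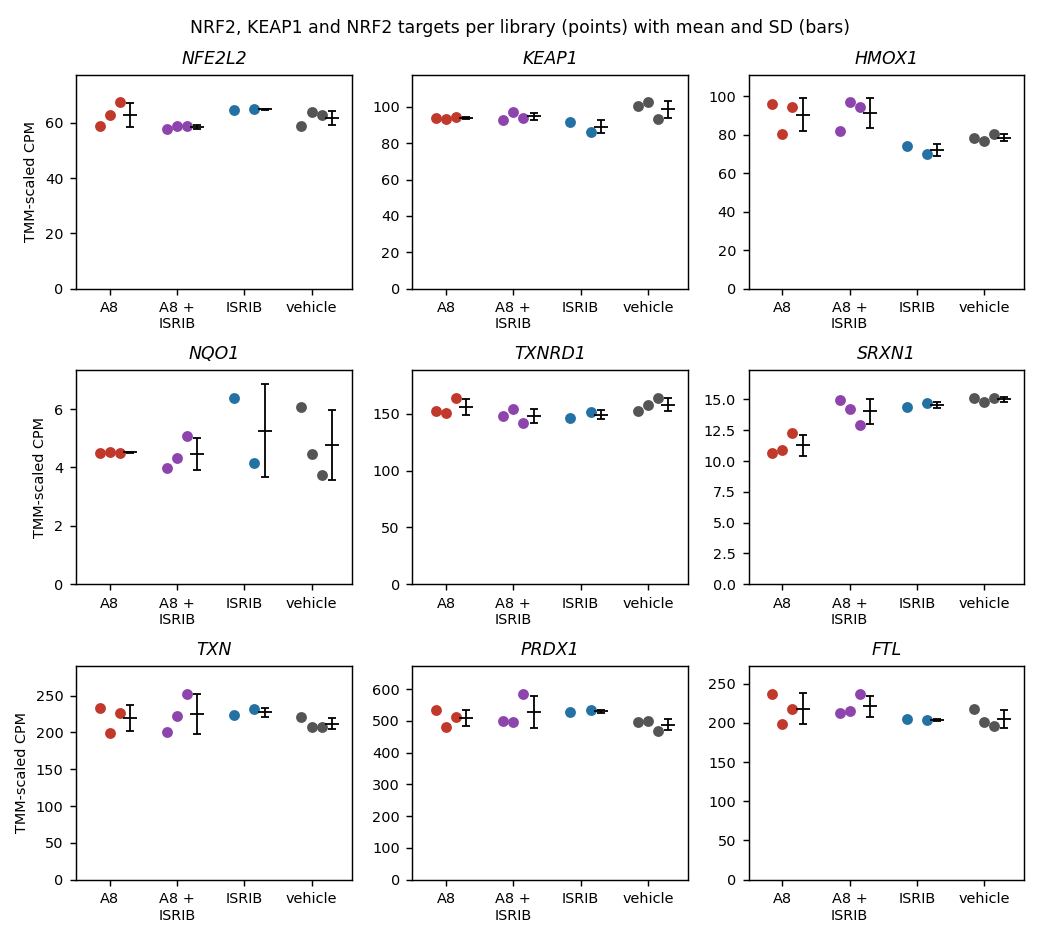
Level of each gene in TMM-scaled CPM (vertical axes, from 0) in every library (points) of the 4 groups, with the group mean and SD beside the points (bars). The 3 A8 points of SRXN1 lie below all other libraries, and the A8 and A8 with ISRIB points of HMOX1 lie above those of ISRIB and vehicle. The closest of these HMOX1 points are 80.55 CPM with A8 and 80.5 CPM with vehicle.

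A8 was first set against vehicle. By edgeR's quasi-likelihood test 0 of the 9 genes were called higher or lower with A8 against vehicle at an adjusted p under 0.05, where 0.141% of all genes tested were called. SRXN1 was lower and HMOX1 slightly higher in every A8 library than in any vehicle library, and the other 7 genes overlapped between the groups. These 2 of 9 genes without overlap stand against 16.6% of all genes, a share near the background, and the same 2 had an unadjusted p under 0.05, against 10.2% of all genes. The median log2 fold change of the 9 genes was 0.028, beside 0.0069 over all genes tested.

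SRXN1 measured 10.7, 10.9 and 12.2 CPM in the A8 libraries, against 15.1, 14.8 and 15.1 CPM with vehicle. In A8 with ISRIB it measured 14.97, 14.2 and 12.9 CPM, and with ISRIB alone 14.4 and 14.7 CPM. The A8 libraries were thus the lowest of the series, and the 12.9 CPM came from the replicate that stood apart. How many of all genes were lowest in the A8 libraries was not computed. The log2 fold change with A8 against vehicle was -0.41 (SE 0.09, 95% interval -0.61 to -0.22), at percentile 4.1 of all genes tested, and the adjusted p was 0.103 in edgeR. It was called by the DESeq2 Wald test (adjusted p = 0.0118) and by no other alternative, the adjusted p of edgeR ranging up to 0.402. In the authors' deposited table the log2 fold change was -0.42 with an adjusted p of 0.149.

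HMOX1 degrades heme to iron, carbon monoxide and biliverdin, and is a classic oxidative stress gene. It measured 96.3, 80.55 and 94.5 CPM in the A8 libraries, against 78.1, 76.8 and 80.5 CPM with vehicle, where the second A8 library exceeded the highest vehicle library by less than the spread within either group. The log2 fold change was 0.20 (SE 0.08, 95% interval 0.040 to 0.37), with an adjusted p of 0.392 in edgeR. Without vehicle replicate 3, HMOX1 was 0.22 higher and SRXN1 differed by -0.41 on the log2 scale, neither called. The authors' deposited table gave 0.20 with an adjusted p of 0.645.

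The libraries of the regulators NFE2L2 and KEAP1 overlapped between A8 and vehicle. NFE2L2 measured 58.8, 62.7 and 67.4 CPM with A8, against 58.8, 63.8 and 62.7 CPM with vehicle, a log2 fold change of 0.028 (95% interval -0.11 to 0.17). KEAP1 lay within 93.5 to 94.5 CPM in the 3 A8 libraries, against 93.2 to 102.5 CPM with vehicle, a log2 fold change of -0.072 (95% interval -0.20 to 0.052). NFE2L2 and KEAP1 had adjusted p-values of 0.923 and 0.73 in edgeR.

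The enzymes of the thioredoxin system other than SRXN1 overlapped with vehicle, and so did FTL. TXNRD1 measured 151 to 164 CPM with A8, against 153 to 164 CPM with vehicle, a difference of -0.020 in log2 units (95% interval -0.14 to 0.10). TXN measured 200 to 234 CPM with A8, against 207 to 220 CPM with vehicle (log2 fold change 0.054, interval -0.11 to 0.22). PRDX1 measured 482 to 533 CPM with A8, against 468 to 500 CPM with vehicle (0.060, interval -0.084 to 0.20). FTL, the iron store, measured 198 to 237 CPM with A8, against 196 to 217 CPM with vehicle (0.090, interval -0.059 to 0.24). For these 4 genes the upper ends of the intervals lay at or below 0.24, so a rise beyond that on the log2 scale falls outside the 95% intervals of this fit.

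NQO1 gave the least precise value. Its 3 A8 libraries lay at 4.49, 4.55 and 4.50 CPM, against 6.08, 4.47 and 3.73 CPM with vehicle, which differ by -0.077 on the log2 scale (95% interval -0.47 to 0.31). With 131 to 221 counts per library it was the lowest counted of the 9 genes, and vehicle replicate 1 and ISRIB library a, at 6.08 and 6.38 CPM, were the high libraries. Without vehicle replicate 1 the value was 0.14.

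**Figure D2:**
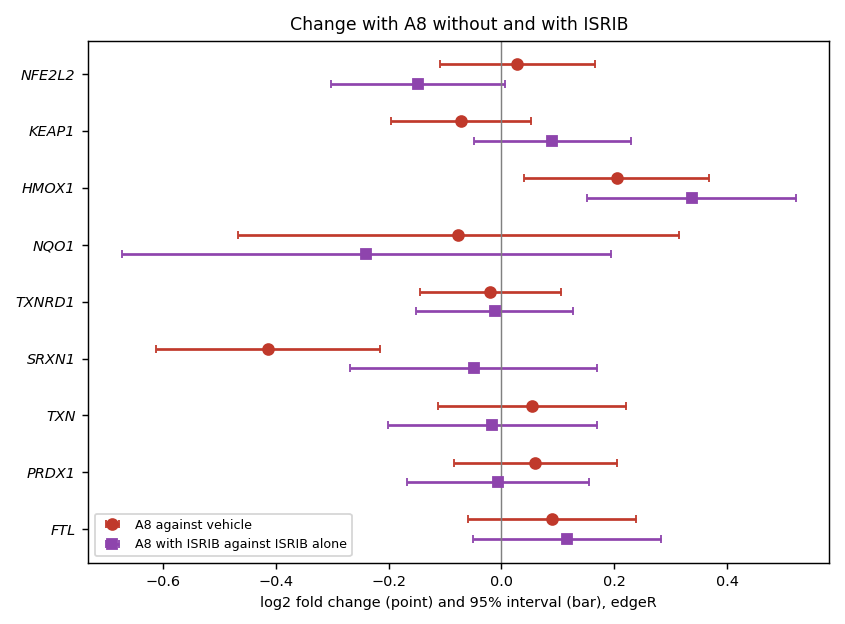
Log2 fold change with A8 (horizontal axis) without ISRIB (A8 against vehicle, circles) and with it (A8 with ISRIB against ISRIB alone, squares), with 95% intervals from edgeR (bars), for each gene. The intervals of HMOX1 lie above 0 both times, and that of SRXN1 lies below 0 without ISRIB and spans 0 with it, a difference that the interaction test did not call. The intervals are not adjusted for the number of genes tested, and edgeR called none of these genes in either comparison.

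In the presence of ISRIB, the effect of A8 was taken against ISRIB alone, a comparison with its own set of libraries. By edgeR 0 of the 9 genes were called, where 0.0128% of all genes were, 1 of 9 had an unadjusted p under 0.05 against 8.32% of all genes, and DESeq2 called 0. HMOX1 measured 82.2, 96.8 and 94.6 CPM with A8 and ISRIB, against 74.3 and 70.1 CPM with ISRIB alone. On the log2 scale it stood 0.34 higher (SE 0.09, 95% interval 0.15 to 0.52), with an adjusted p of 0.292 in edgeR and 0.0588 in DESeq2. The latter was the smallest adjusted p of any alternative, and with the GC trend removed it was 0.57 in edgeR. Without replicate 3 of A8 with ISRIB, HMOX1 stood 0.31 higher. HMOX1 was thus higher in all 6 libraries with A8 than in all 5 without it, at the closest 80.55 CPM (A8) against 80.5 CPM (vehicle). The share of all genes separated in this way was not computed. The interaction, the effect of A8 with ISRIB minus that without it, was 0.13 for HMOX1 (95% interval -0.11 to 0.38, adjusted p = 0.79 in edgeR).

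SRXN1 differed by -0.049 on the log2 scale in this comparison (95% interval -0.27 to 0.17). The interaction of SRXN1 was 0.36 (SE 0.14, 95% interval 0.069 to 0.66, adjusted p = 0.524 in edgeR), so a difference between the effects of A8 with and without ISRIB was not called. NFE2L2 measured 57.7 to 59.0 CPM with A8 and ISRIB, against 64.7 and 65.1 CPM with ISRIB alone, a log2 fold change of -0.15 (95% interval -0.30 to 0.0055). KEAP1 measured 93.1 to 97.1 CPM with A8 and ISRIB, against 91.6 and 86.5 CPM with ISRIB alone, a log2 fold change of 0.090 (95% interval -0.049 to 0.23). HMOX1, NFE2L2, KEAP1 and FTL (0.12) were the 4 of 9 genes whose libraries did not overlap between the groups, against 25.2% of all genes. TXNRD1, TXN and PRDX1 had log2 fold changes of -0.012, -0.016 and -0.0061, and NQO1 one of -0.24 (95% interval -0.67 to 0.19), which was 0.10 without ISRIB library a. By edgeR 0 of 9 interactions were called, where 0.0257% of all genes were, and 1 of 9 had an unadjusted p under 0.05, against 8.48% of all genes. DESeq2 called 0. The other 7 interactions lay between -0.18 for NFE2L2 and 0.16 for KEAP1.

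Adding ISRIB to A8 was tested in A8 with ISRIB against A8, which shares the A8 libraries with A8 against vehicle. Neither edgeR nor DESeq2 called any of the 9 genes, 0.18% of all genes being called by edgeR, and 1 of 9 had an unadjusted p under 0.05, against 5.91% of all genes. That gene was SRXN1, higher in each A8 with ISRIB library than in any A8 library, by 0.32 on the log2 scale (SE 0.09, 95% interval 0.12 to 0.52, adjusted p = 0.508 in edgeR), and by 0.37 without replicate 3 of A8 with ISRIB. It was the 1 of 9 genes without overlap, against 11.1% of all genes. HMOX1 averaged 91.2 ± 7.89 CPM with A8 and ISRIB and 90.4 ± 8.6 CPM with A8 (SD, n = 3 each), 0.012 apart in log2 units (95% interval -0.15 to 0.18). The other 7 genes lay between -0.11 for NFE2L2 and 0.054 for PRDX1.

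ISRIB alone against vehicle gave small values for every gene, from -0.15 for KEAP1 to 0.14 for NQO1 on the log2 scale. By edgeR 0 of 9 were called, 0% of all genes being called, and 1 of 9 had an unadjusted p under 0.05, against 9.58% of all genes, while DESeq2 called 0 of the 9. Both ISRIB libraries lay outside the vehicle range for 7 of the 9 genes, against 29% of all genes, above it for NFE2L2, TXN and PRDX1 (13.9% of all genes) and below it for KEAP1, HMOX1, TXNRD1 and SRXN1 (15.1% of all genes). In this comparison log2 fold change and GC content of the longest transcript were correlated across 14366 genes (Spearman rho -0.465), which share these libraries and are not independent. Of the 7 genes, those below the vehicle range had a GC content of 60.3% (KEAP1), 58.1% (HMOX1), 53.6% (SRXN1) and 44.8% (TXNRD1), and those above it 51.4% (PRDX1), 45.6% (NFE2L2) and 42.8% (TXN). FTL (GC content 56.3%, log2 fold change -0.0059) and NQO1 (46%, 0.14) overlapped with vehicle. With the GC trend of each library removed, an alternative added after seeing the data, the log2 fold change was nearer 0 for KEAP1 (-0.044), HMOX1 (-0.040), SRXN1 (-0.016), NFE2L2 (0.022) and TXN (0.026). It was farther from 0 for TXNRD1, at -0.14 against -0.082 as reported, and nearly the same for PRDX1, at 0.13 against 0.12. For FTL it moved away from 0, to 0.058, and for NQO1 toward 0, to 0.0955. No gene of the 9 was called under this alternative.

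The interaction had a Spearman rho of 0.45 with GC content over the same genes, A8 with ISRIB against ISRIB alone one of 0.322 and A8 against vehicle one of -0.29. With the GC trend removed, the interaction was 0.032 for KEAP1, 0.035 for HMOX1, -0.12 for NFE2L2 and 0.33 for SRXN1. KEAP1 then had a log2 fold change of -0.011 with A8 against vehicle and 0.021 with A8 and ISRIB against ISRIB alone. SRXN1 had one of -0.40 with A8 against vehicle, and HMOX1 one of 0.25 there and 0.28 against ISRIB alone.

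Set against plain vehicle, A8 with ISRIB had 0 of 9 genes called by edgeR and 0 by DESeq2, where edgeR called 0.0192% of all genes, and 1 of 9 with an unadjusted p under 0.05, against 7.7% of all genes. HMOX1, the 1 of 9 genes without overlap (12.4% of all genes), had a log2 fold change of 0.22 (95% interval 0.053 to 0.38, adjusted p = 0.519 in edgeR), and SRXN1 one of -0.095 (95% interval -0.29 to 0.10). TXN, PRDX1 and FTL had values of 0.087, 0.11 and 0.11, each highest in replicate 3 of A8 with ISRIB, and of -0.0030, 0.035 and 0.061 without that replicate. TXNRD1, NFE2L2, KEAP1 and NQO1 lay between -0.097 and -0.059. The median over the 9 genes was -0.059, and 0.11 without vehicle replicate 1.

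The rest of the pathway was read from lists of 63 further genes, of which 59 were tested. With A8 against vehicle 1 of the 59 was called, TXNIP, and 0 were called higher, beside 0.0834% of all genes called higher and 0.0577% lower. The NRF2 partners and regulators had 0 of 10 called, with a median log2 fold change of -0.034. MAFK, a small MAF protein that pairs with NRF2, measured 9.76, 9.71 and 8.86 CPM with A8, against 12.4, 11.4 and 12.7 CPM with vehicle (-0.36, adjusted p = 0.209 in edgeR), and 11.9, 11.1 and 11.2 CPM with A8 and ISRIB. With ISRIB alone MAFK lay at 10.8 and 9.03 CPM, below vehicle without any A8. BACH1, the repressor that competes with NRF2 at HMOX1, had a log2 fold change of 0.33 (95% interval -0.052 to 0.70), and SQSTM1, an autophagy receptor that binds KEAP1, one of -0.088 (95% interval -0.22 to 0.042).

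Among the glutathione-linked targets 0 of 9 tested genes were called with A8. SLC7A11, the cystine carrier, which ATF4 also induces, measured 10.9, 15.01 and 10.1 CPM with A8, against 5.05, 6.69 and 8.94 CPM with vehicle, so its level was 0.80 log2 units above vehicle with an SE of 0.24 (edgeR, adjusted p = 0.246). It was called when no filter on low counts was used (adjusted p = 0.00128). In A8 with ISRIB it measured 7.50, 6.10 and 3.32 CPM, and its log2 fold change against A8 was -1.08 (SE 0.24, adjusted p = 0.145 in edgeR). That value was called without a filter on low counts (adjusted p = 1.71e-06 in edgeR). It was -1.34 without A8 with ISRIB replicate 1 (adjusted p = 0.0426) and -0.82 without replicate 3 (adjusted p = 0.227 in edgeR). With ISRIB alone SLC7A11 measured 3.78 and 4.86 CPM, a log2 fold change of -0.67 against vehicle (95% interval -1.27 to -0.071), not called. A8 with ISRIB stood 0.39 above ISRIB alone (95% interval -0.22 to 0.995). The interaction was -0.41 and not called. With A8 against vehicle the other 8 tested genes of the list lay between -0.034 and 0.033. GSTP1, a glutathione transferase, was the lowest of them. GCLM, the modifier subunit of the ligase that starts glutathione synthesis, was the highest (95% interval -0.13 to 0.20). The GCLM promoter window held the match TGACTAAGC, as did that of KEAP1.

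The NADPH-making targets had 0 of 6 called. IDH1, the cytosolic isocitrate dehydrogenase, had a log2 fold change of -0.099 (95% interval -0.28 to 0.080), and TKT, a transketolase, one of -0.043 (95% interval -0.16 to 0.077). Of the other NRF2 targets 0 of 19 tested genes were called. FTH1, the ferritin heavy chain, had a log2 fold change of 0.079 (95% interval -0.075 to 0.23), close to that of FTL, CBR1, a carbonyl reductase, one of -0.20 and TRIM16L one of 0.27. AKR1C3, an aldo-keto reductase, had 1 to 2 counts per A8 library, against 9 to 10 with vehicle and 3 to 13 with A8 and ISRIB. With ISRIB alone it had 5 and 3 counts, below vehicle without any A8. These counts are too few to interpret its fitted value with A8 against vehicle (adjusted p = 0.214 in edgeR). GPX2, AKR1B10, ABCC3 and CYP4F11 had at most 7 counts in any library and were not tested.

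Of 15 thioredoxin, peroxiredoxin and other antioxidant genes outside the 9, TXNIP, which binds and inhibits thioredoxin and is itself under glucose-responsive factors, was the 1 called. It fell to 4.32 ± 0.533 CPM with A8, against 9.48 ± 0.779 CPM with vehicle (SD, n = 3 each; log2 fold change -1.13, adjusted p = 0.00145 in edgeR), and it was called lower with A8 and ISRIB against ISRIB alone too (-1.37, adjusted p = 0.00412). That second call was lost without A8 with ISRIB replicate 2 (-1.36) and without ISRIB library b (-1.28). The other 14 genes of the list had log2 fold changes from -0.19 to 0.045 with A8 against vehicle, and the median of the list was -0.055.

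**Figure D3:**
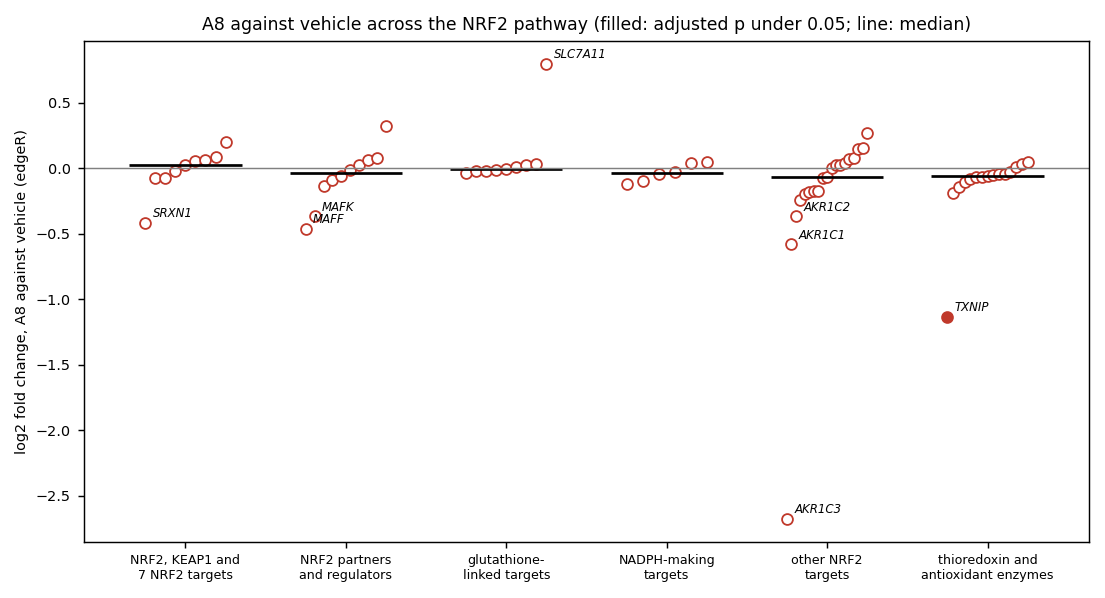
Log2 fold change of each tested gene with A8 against vehicle (vertical axis, edgeR) for the 9 genes described here and 5 wider lists, filled where the adjusted p was under 0.05, with the median of each list (lines). TXNIP is the only filled point, most genes lie near 0, and the labelled AKR1C genes and MAFF had very low counts or near-identical copies.

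Genes whose mean levels over the 4 groups followed these genes most closely were found among 10906 others, each averaging 2 or more in log2 CPM. For HMOX1 they were CPNE1, FOXJ2 and YPEL3, with root mean square differences of 0.0058, 0.013 and 0.015 on the log2 scale. For SRXN1 they were LOC100133286, PGAM4 and A4GALT (0.020 to 0.028), and for TXNRD1, whose group means all lay within 0.049 of their average, GALNT14, ACADVL and PLXNB2 (0.0030 to 0.0076). With 4 points per gene such likeness is a description only.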

How the data were processed

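Counts per gene symbol were deposited by the authors for 11 libraries, per the file headers, from poly(A)-selected, strand-marked RNA, per the labels' protocols. The genome build was GRCh37 and DESeq and DESeq2 were named, per the submitters' processing notes, and no source used here gives the aligner, counter, strand setting or annotation. The authors also deposited DESeq2 tables holding log2 fold changes, p-values, Wald statistics (a score) and each gene's mean normalized signal. The ISRIB columns carry numbers that differ from the titles, so they are called a and b.

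From the counts, genes kept by filterByExpr were TMM-scaled and fitted with edgeR 4.0.16 in R 4.3.3 (glmQLFit, glmQLFTest, 4 group means, all 11 libraries), with Benjamini-Hochberg adjustment over 15591 genes and calls at an adjusted p under 0.05. The script was tested on simulated data. SEs were derived from the F statistic. Libraries are described as biological replicates in the series' text. Replicates differed by more than sampling noise (chi-square per degree of freedom of at least 7.21), so none was a copy. In the shallowest library 0 counts set a limit of 0.088 CPM (3 counts), for counting error only.

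The 9 genes and all lists were chosen with earlier results of these data known. The naming rule took the 9 genes, SLC7A11, GCLM, FTH1, SQSTM1 and TXNIP, called list genes or else the 3 with the smallest p in A8 against vehicle, and the 3 genes of most like pattern for HMOX1, SRXN1 and TXNRD1; 1 gene so named is not reported here. MAFF and the AKR1C genes other than AKR1C3 were labelled in a plot after their values were seen. Alternatives were DESeq2 size factors, library size only, the DESeq2 1.42.0 Wald test, no filter, at least 50 counts in 3 libraries, only the groups compared, a replicate block and each library left out. Removal of a GC trend (lowess per library, GENCODE 29 transcripts, 92.1% of tested genes) was added after seeing the data. Promoter sequences are from RefSeq.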

Additional observations from a re-analysis of the deposited data

How the results depend on the processing

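The calls for the 9 genes changed in 1 alternative, the DESeq2 Wald test, which called 1 gene lower with A8 against vehicle, SRXN1. The 95% intervals and the depth leave small changes of NQO1 unresolved.

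Counts over all genes (higher and lower) were these under the DESeq2 Wald test: 61 and 68 for A8 against vehicle (13 and 9 as reported), 11 and 21 for A8 with ISRIB against vehicle (0 and 3), 48 and 20 against ISRIB alone (1 and 1), 15 and 38 against A8 (3 and 25), 4 and 46 for ISRIB alone (0 and 0), and 42 and 9 for the interaction (2 and 2). Without a filter they were 59 and 45, 22 and 18, 28 and 13, 13 and 41, 3 and 11, and 18 and 8 in the same order, with 1 wider-list gene higher with A8 and 1 lower with A8 with ISRIB against A8, in each case SLC7A11. With at least 50 counts, 4 and 2 were called against ISRIB alone and 1 lower in the interaction. With library size only, 2 were lower against ISRIB alone and 1 lower in the interaction. With only the groups compared, 0 were lower for A8 with ISRIB against vehicle, 0 higher against ISRIB alone, and 1 higher and 2 lower for ISRIB alone. With the GC trend removed, 27 were higher with A8, 0 higher against ISRIB alone, and 0 higher and 1 lower in the interaction.

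The replicate numbers gave no sign of pairing. Same-numbered libraries deviated together with correlations from -0.133 to 0.138, and differently numbered ones with correlations from -0.12 to 0.154. With at most 3 libraries per group this cannot exclude that libraries were handled together. With the replicate block 4 genes were lower with A8, 13 lower with A8 with ISRIB against A8 and 0 lower with A8 with ISRIB against vehicle, and SRXN1 with A8 had an adjusted p of 0.402 in edgeR. No paired analysis was possible for comparisons with ISRIB alone because its columns carry no usable number. The wider-list count of 1 lower gene, TXNIP, in A8 with ISRIB against vehicle became 0 with the block and 0 with only the groups compared.

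Leaving out 1 library gave 3 to 7 lower genes with A8, 0 to 3 higher and 0 to 4 lower with A8 with ISRIB against vehicle, 0 to 5 higher and 0 to 8 lower against ISRIB alone, 14 to 29 lower against A8, 0 to 1 higher and 0 to 2 lower for ISRIB alone, and 0 to 3 higher and 0 to 3 lower in the interaction. The wider lists had 0 to 1 lower in each of the comparisons of A8 with ISRIB with A8, with ISRIB alone and with vehicle.

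Some values that no fit called crossed 0 in some fits, and the cause was not tested. Most of them were near 0, but NQO1 also crossed it from larger values, such as -0.24 with A8 and ISRIB against ISRIB alone. With library size only, A8 with ISRIB against A8 gave -0.0062 for KEAP1, -0.0074 for HMOX1 and -0.0001 for FTL, and the interaction -0.0006 for TXNRD1. With the GC trend removed, A8 against vehicle gave -0.0040 for NFE2L2, -0.025 for GCLM and 0.045 for GSTP1, A8 with ISRIB against ISRIB alone 0.022 for TXNRD1 and 0.035 for TXN, A8 with ISRIB against A8 -0.012 for KEAP1 and -0.0056 for HMOX1, ISRIB alone 0.058 for FTL, and the interaction 0.025 for TXN and -0.049 for FTL. Leaving out 1 library, A8 against vehicle ranged from -0.021 to 0.076 for NFE2L2, from -0.22 to 0.14 for NQO1, from -0.056 to 0.0069 for TXNRD1, from -0.0002 to 0.082 for GCLM and from -0.12 to 0.061 for GSTP1. A8 with ISRIB against vehicle ranged from -0.25 to 0.11 for NQO1 and from -0.0030 to 0.17 for TXN. Against ISRIB alone the ranges were -0.52 to 0.10 for NQO1, -0.043 to 0.018 for TXNRD1, -0.098 to 0.0064 for SRXN1, -0.11 to 0.062 for TXN and -0.087 to 0.035 for PRDX1. Against A8 they were -0.0048 to 0.026 for KEAP1, -0.065 to 0.082 for HMOX1, -0.12 to 0.054 for NQO1, -0.059 to 0.11 for TXN, -0.027 to 0.095 for PRDX1 and -0.043 to 0.086 for FTL. For ISRIB alone they were -0.20 to 0.42 for NQO1, -0.038 to 0.039 for FTL and -0.015 to 0.15 for TXNIP. Interactions ranged from -0.44 to 0.18 for NQO1, from -0.023 to 0.041 for TXNRD1, from -0.16 to 0.0084 for TXN and from -0.037 to 0.092 for FTL.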
